A study of Mus musculus with 6 samples.

Results

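Mbnl1, Tiparp, Lekr1, Lxn, Il12a, Trim59, Kpna4 and Ppm1l are 8 protein coding genes that lie between 60 and 70 Mb of mouse chromosome 3. They were selected on their levels in Cre-positive against Cre-negative mice in an earlier look at the same libraries, and the feature with each of these symbols was taken. The window holds 67 of the 31053 measured features, 52 of them protein coding. All 8 genes start inside it by their positions in GENCODE M21 (build GRCm38): Mbnl1 (ENSMUSG00000027763) at 60472830 to 60629750 and Tiparp (ENSMUSG00000034640) at 65528410 to 65555518, both on the plus strand. Lekr1 (ENSMUSG00000074579) lies at 65666228 to 65831159 and Il12a (ENSMUSG00000027776) at 68690644 to 68698547, also on the plus strand. On the minus strand are Lxn (ENSMUSG00000047557) at 67457998 to 67463926, Trim59 (ENSMUSG00000034317) at 69035288 to 69044755 and Kpna4 (ENSMUSG00000027782) at 69067149 to 69127113, and Ppm1l (ENSMUSG00000027784) follows on the plus strand at 69316861 to 69560802.

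The libraries are single-cell RNA libraries of the pancreatic lymph node, the node that drains the pancreas, from 6 mice. All 6 had the same floxed gene. The 3 mice called Cre-positive also had the CD4-Cre transgene, which the 3 called Cre-negative lacked. CD4-Cre places the recombinase under control of Cd4 sequences and acts from the thymic stage at which T cell precursors express Cd4, which covers the later CD4 and CD8 lineages alike. B cells do not pass through that stage. Strain, sex and age of the mice are not given in the labels used here, and each library is 1 mouse per the labels.

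The proteins do different things. MBNL1 is a muscleblind RNA-binding protein that sets the choice of alternative exons. TIPARP transfers ADP-ribose to proteins, its gene is a classical target of the aryl hydrocarbon receptor, and it dampens that receptor in return. TRIM59 is a ubiquitin ligase of the tripartite motif family. KPNA4 is an importin alpha, the adaptor that binds nuclear localisation signals and carries proteins such as NF-kB subunits through the nuclear pore together with importin beta. PPM1L is a phosphatase of the PP2C family in the membrane of the endoplasmic reticulum. Latexin, the product of Lxn, inhibits carboxypeptidases and is known as a brake on the number of blood stem cells. IL12A (p35) is a cytokine subunit that pairs with IL12B to form IL-12 and with EBI3 to form IL-35. The function of LEKR1 is little known.

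The promoters of 4 genes are shown. Trim59, Kpna4 and Lxn were among the genes shifted in several cell classes, and Tiparp is the receptor target among the genes. Each run covers 250 bases before to 50 after the RefSeq start (GRCm38.p6), read 5′ to 3′ on the strand of the gene. Capitals mark the core motif of the aryl hydrocarbon receptor, GCGTG, or its reverse complement CACGC.
Trim59 (chr3:69044693-69044992, minus strand): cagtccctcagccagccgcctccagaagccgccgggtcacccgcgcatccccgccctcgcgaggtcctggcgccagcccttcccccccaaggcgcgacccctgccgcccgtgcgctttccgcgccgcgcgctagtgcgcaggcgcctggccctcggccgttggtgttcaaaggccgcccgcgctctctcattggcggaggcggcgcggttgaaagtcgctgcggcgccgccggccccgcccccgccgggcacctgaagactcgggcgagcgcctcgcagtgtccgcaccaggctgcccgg
Kpna4 (chr3:69127043-69127342, minus strand): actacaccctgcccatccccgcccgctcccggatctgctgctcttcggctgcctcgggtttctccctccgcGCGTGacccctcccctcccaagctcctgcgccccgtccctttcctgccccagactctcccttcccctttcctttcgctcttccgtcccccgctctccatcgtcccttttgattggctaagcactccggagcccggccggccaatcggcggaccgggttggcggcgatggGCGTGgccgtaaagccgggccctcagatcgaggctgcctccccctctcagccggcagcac
Lxn (chr3:67463858-67464157, minus strand): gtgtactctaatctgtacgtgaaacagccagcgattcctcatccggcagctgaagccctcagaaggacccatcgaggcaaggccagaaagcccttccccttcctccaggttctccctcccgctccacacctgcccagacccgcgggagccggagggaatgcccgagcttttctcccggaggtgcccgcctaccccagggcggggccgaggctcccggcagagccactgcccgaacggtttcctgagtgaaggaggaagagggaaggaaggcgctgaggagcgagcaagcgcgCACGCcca
Tiparp (chr3:65528197-65528496, plus strand): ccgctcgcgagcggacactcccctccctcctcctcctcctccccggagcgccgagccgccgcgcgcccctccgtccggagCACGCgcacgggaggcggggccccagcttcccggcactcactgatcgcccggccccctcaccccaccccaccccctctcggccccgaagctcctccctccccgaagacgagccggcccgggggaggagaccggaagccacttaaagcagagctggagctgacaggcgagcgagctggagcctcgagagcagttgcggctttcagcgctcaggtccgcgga
RefSeq sequences were matched for 7 of the 8 genes, with 2 starts each for Mbnl1 and Il12a, and Ppm1l had none in the table. The Tiparp promoter held the motif with its first base at -170 from the start, the Lxn promoter at 42, and the Kpna4 promoter held it at 2 places, both before the start. Trim59, whose promoter is 76.7% G and C, had no match in this window. Among the promoters not shown, the first start of Mbnl1 had no match and the second had it at -28. The first start of Il12a had none and the second had it at -216, and Lekr1 had none. Of all 32851 mouse promoters of this length, 32.4% held the motif on either strand, and the median G and C content was 52.7%. A match is a run of letters and not a measured site.

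Cells were assigned to 6 classes from the UMIs (unique molecular identifiers, 1 per captured RNA molecule) of gate genes. After the quality limits and doublet removal 51515 cells were kept, with 47149014 to 61321105 UMIs deposited per library and a median of 4243 to 5590 UMIs per cell. The gates held 10817 CD4 cells, 1695 regulatory, 7066 CD8, 9848 B and 723 dendritic cells, between 55.5% and 62.2% of the cells of a library together with the monocytes. The monocyte gate held 23 cells, 2 to 6 per mouse, too few for the genotype comparison of any of the 8 genes. A wider myeloid gate, added after seeing this, held 147 cells that carried C1q macrophage genes. Libraries shared 16 to 39 cell barcodes per pair, at most 0.393% of the smaller library.
Marker genes that no gate used were highest in their own class for 6 of 6 B, 6 of 6 monocyte, 5 of 6 dendritic and 4 of 5 regulatory genes. They were so for 3 of 5 CD4 and 1 of 2 CD8 genes, the exceptions being Cd83 (highest in B cells), Capg (monocytes), Izumo1r and Cd28 (regulatory cells) and Ccl5 (dendritic cells). Haemoglobin RNA varied between libraries: the summed erythroid markers ranged from 7.33 to 1335 CPM in CD4 cells of Cre-negative mice and from 0.864 to 717 CPM in Cre-positive mice.

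In Cre-negative mice each gene had its own distribution over the classes. Trim59 was highest in regulatory T cells, Il12a and Lekr1 in B cells, Mbnl1 was lower in B and dendritic cells than in T cells, and Kpna4 was lowest in B and regulatory cells among the classes with many cells. These comparisons use the Cre-negative mice only. They were tested with edgeR's quasi-likelihood test over 18 sums of UMIs (3 mice by 6 classes, the mouse as a block). Benjamini-Hochberg adjustment was over 11071 genes. The Cre-negative levels were also part of the comparison that selected the genes, so these tests are not fully independent of that choice. Levels here are in CPM, the usual unit of counts scaled by sequencing total, with all classes scaled together, as mean ± SD over 3 mice. Only pairs with more than 3 UMIs in every class used were read, which left 25 of 40 pairs of gene and contrast, of which 16 passed. For B cells against the mean of the 3 T cell classes 6 of 7 genes passed, where 59.9% of all genes did. For CD8 against CD4 cells it was 3 of 7 (26.4% of all genes), and for regulatory against CD4 cells 4 of 7 (28.6%). Both genes that could be read passed for monocytes against dendritic cells (9.6%), and 1 of 2 for the mean of both myeloid classes against the lymphocytes (25.1%).

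**Figure D1:**
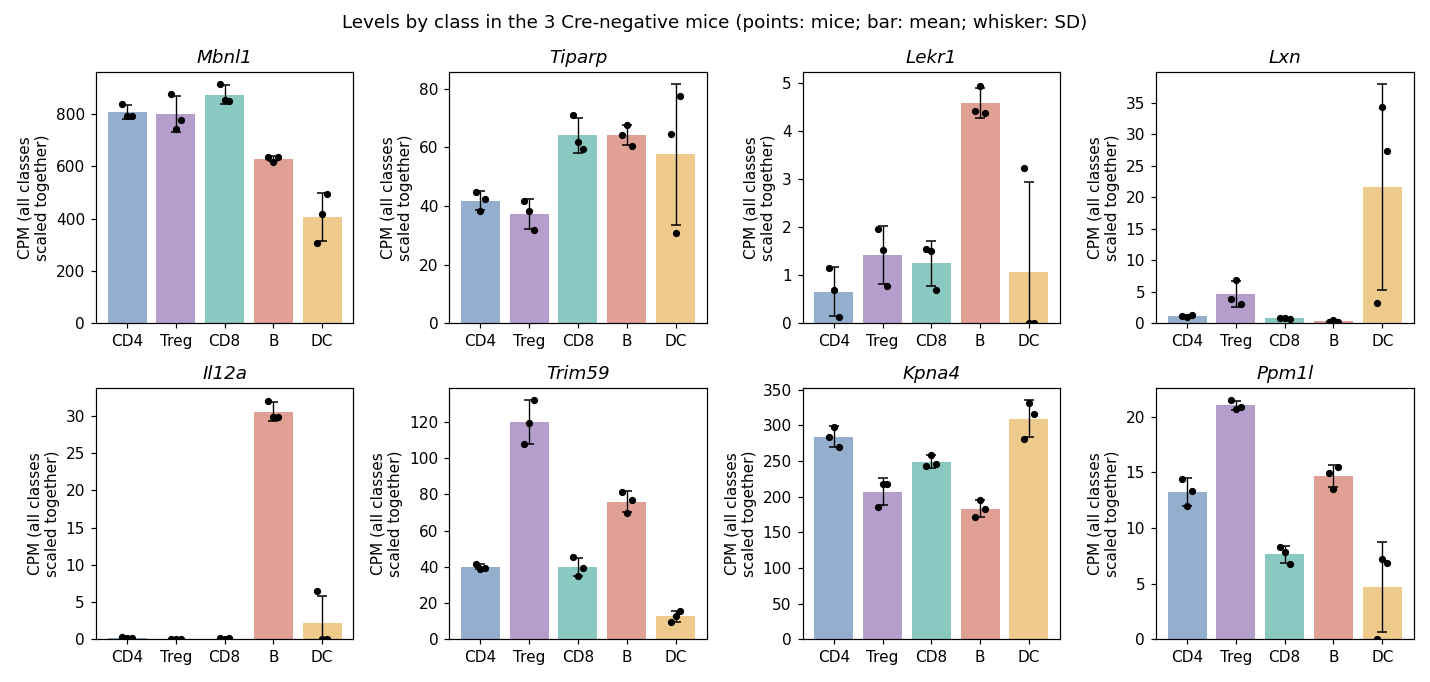
Levels of the 8 genes by class in the 3 Cre-negative mice, in CPM with all classes scaled together; points are mice, bars the mean and whiskers the SD. Trim59 peaks in regulatory cells (Treg, mean 120 CPM), Il12a stands at 30.6 CPM in B cells and near 0 in the T cell classes, and the dendritic class (DC) has the widest spread.

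Trim59 stood at 108, 120 and 132 CPM in regulatory T cells of mice 1 to 3, against 41.7, 39.1 and 39.6 CPM in CD4 cells. In B cells it was at 81.3, 69.6 and 77.2 CPM, and in CD8 cells at 45.3, 35.1 and 39.6 CPM. The regulatory and B values lay above every CD4 and CD8 value, and CD4 and CD8 overlapped. The log2 difference was 1.57 (SE 0.0995, adjusted p = 1.57e-44 by edgeR) for regulatory over CD4 cells and 0.40 (SE 0.0642, adjusted p = 4.14e-09 by edgeR) for B over T cells. CD8 and CD4 cells differed by -0.0020 on the log2 scale (SE 0.0860, adjusted p = 0.994 by edgeR). Dendritic cells held 17 UMIs of the gene (12.8 ± 3.13 CPM) and monocytes none.

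Il12a was found almost entirely in B cells. The 3 mice gave 32.1, 29.9 and 29.8 CPM there, from 532 UMIs. The T cell classes together held 7 UMIs, 5 in CD4, 2 in CD8 and 0 in regulatory cells, and dendritic cells held 2, both in Cre-negative 1. Per UMI sequenced, B cells had 205 times the T cell level, with an exact 95% interval of 99.0 to 513 that covers counting error only. In Cre-positive mice 884 UMIs in B and 5 in T cells gave a ratio of 379.8 (162 to 1173), and the 2 intervals overlap. The partner gene Il12b had no UMI in the B, CD4, CD8 and regulatory classes and 18 in dendritic cells, which were spread unevenly over the mice (19.0 ± 31.0 CPM). Ebi3, the other partner, had 143 UMIs in B cells (8.19 ± 1.82 CPM), 49 in regulatory cells (11.5 ± 5.03 CPM) and 106 in dendritic cells (81.4 ± 29.1 CPM).

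Mbnl1 was at 873 ± 36.4 CPM in CD8, 808 ± 25.8 in CD4, 799 ± 69.6 in regulatory and 629 ± 10.3 CPM in B cells (SD, n = 3). Dendritic cells had 406 ± 93.4 CPM, and the 10 UMIs of the monocytes came to 110.2 ± 33.5 CPM. The neighbours in this order that overlapped were CD4 with regulatory and CD8 with regulatory, and B and dendritic cells lay below every T cell value. B cells were lower than T cells by a log2 difference of -0.39 (SE 0.0428, adjusted p = 6.07e-18 by edgeR), and the myeloid classes lower than the lymphocytes by -1.82 (SE 0.178, adjusted p = 7.79e-21 by edgeR). CD8 minus CD4 (0.11, SE 0.0490, adjusted p = 0.0757 by edgeR) did not pass, and regulatory minus CD4 was -0.013 (SE 0.0558, adjusted p = 0.909 by edgeR). Monocytes were lower than dendritic cells (-1.88, SE 0.442, adjusted p = 7.07e-04 by edgeR), a call lost with DESeq2 (0.333) and with upper quartile factors (0.226). In Cre-positive mice this difference was -0.78 (SE 0.334, adjusted p = 0.151 by edgeR) and did not pass. B minus T (-0.32) and myeloid minus lymphocyte (-1.51) did pass there.

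Kpna4 had 310 ± 26.0 CPM in dendritic, 284 ± 14.4 in CD4, 249 ± 8.82 in CD8, 207 ± 18.9 in regulatory and 183 ± 11.7 CPM in B cells. CD4 lay above CD8 and CD8 above regulatory cells in every mouse, while regulatory and B cells overlapped, as did dendritic and CD4 cells. Regulatory cells were below CD4 cells by -0.46 on the log2 scale (SE 0.0710, adjusted p = 3.46e-09 by edgeR) and B cells below T cells by -0.42 (SE 0.0497, adjusted p = 2.06e-15 by edgeR). CD8 was below CD4 by -0.19 (SE 0.0523, adjusted p = 0.00202 by edgeR). That last call was lost without the mouse block (0.288), with a 5% mitochondrial limit (0.168) and with looser gates (0.0777). In Cre-positive mice CD8 minus CD4 was -0.14 (SE 0.0917, adjusted p = 0.320 by edgeR) and did not pass. Regulatory minus CD4 (-0.52) and B minus T (-0.33) did pass there. Monocytes had 7 UMIs, a log2 difference of -1.96 from dendritic cells (SE 0.487, adjusted p = 0.00159 by edgeR). It was lost with DESeq2 (0.367), with upper quartile factors (0.241) and without Cre-negative 2 (0.142). The 2 myeloid classes together were at -0.53 against the lymphocytes (SE 0.274, adjusted p = 0.151 by edgeR), and passed only with the wider myeloid gate, which held 19 UMIs of the gene (-0.59, SE 0.167, adjusted p = 0.00186 by edgeR).

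Tiparp was at 64.2 ± 3.49 CPM in B and 64.2 ± 6.01 CPM in CD8 cells, above its 41.9 ± 3.28 CPM in CD4 and 37.2 ± 5.08 CPM in regulatory cells. B and CD8 overlapped, CD4 and regulatory overlapped, and the lowest CD8 mouse (59.6 CPM) lay above the highest CD4 mouse (44.9 CPM). Dendritic cells spread from 30.8 to 77.5 CPM and overlapped all of these. The log2 difference was 0.61 for CD8 over CD4 cells (SE 0.0790, adjusted p = 1.80e-12 by edgeR) and 0.47 for B over T cells (SE 0.0742, adjusted p = 3.06e-09 by edgeR). Regulatory minus CD4 was -0.17 (SE 0.139, adjusted p = 0.421 by edgeR) and did not pass. In Cre-positive mice CD8 minus CD4 was 0.19 (SE 0.103, adjusted p = 0.210 by edgeR) and did not pass, while B minus T (0.52) did.

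Ppm1l was highest in regulatory cells, at 21.5, 20.7 and 20.9 CPM in mice 1 to 3. B cells had 14.7 ± 1.02, CD4 cells 13.2 ± 1.23 and CD8 cells 7.64 ± 0.774 CPM, and only B and CD4 overlapped among these classes. CD8 was below CD4 by -0.79 on the log2 scale (SE 0.167, adjusted p = 3.32e-05 by edgeR). Regulatory was above CD4 by 0.66 (SE 0.205, adjusted p = 0.00646 by edgeR), a call lost with a 5% mitochondrial limit (0.0689) and without Cre-negative 2 (0.0653). B minus T (0.19, SE 0.135, adjusted p = 0.230 by edgeR) did not pass.

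Lxn RNA was sparse. Regulatory cells held 19 UMIs (4.63 ± 2.01 CPM), CD4 cells 27 (1.12 ± 0.139 CPM), CD8 cells 14 (0.766 ± 0.0669 CPM) and B cells 5 (0.283 ± 0.184 CPM). Dendritic cells held 32 UMIs, at 3.23, 34.4 and 27.3 CPM in mice 1 to 3, so that mouse 1 overlapped the regulatory cells and mice 2 and 3 lay above all lymphocytes. Regulatory was above CD4 (log2 difference 1.99, SE 0.555, adjusted p = 0.00217 by edgeR), which was lost without Cre-negative 2 (adjusted p = 0.133 by edgeR). B was below T cells by -2.38 (SE 0.611, adjusted p = 2.79e-04 by edgeR), which was lost with a 5% mitochondrial limit (adjusted p = 0.116 by edgeR).

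Lekr1 was sparser still outside B cells. B cells held 80 UMIs and 4.42, 4.95 and 4.38 CPM in mice 1 to 3, while CD8 cells held 23 UMIs, CD4 cells 16 and regulatory cells 6, none above 1.95 CPM in any mouse. The B values lay above every T cell value, with a log2 difference of 2.11 (SE 0.345, adjusted p = 6.87e-09 by edgeR). CD8 minus CD4 (0.89, SE 0.541, adjusted p = 0.239 by edgeR) and regulatory minus CD4 (1.09, SE 0.826, adjusted p = 0.365 by edgeR) did not pass.

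The genotype comparison chose the genes, so what follows is a description with no test of it. UMIs were summed per mouse and class, and levels are CPM scaled within each class, so they differ somewhat from the levels above. A log2 fold change above 0 means a higher level in Cre-positive mice. Mbnl1, Lxn and Trim59 lay higher in Cre-positive mice in each of the lymphocyte classes in which they could be fitted, and Tiparp, Kpna4 and Ppm1l lower. Apart from Lxn, which B cells held too few UMIs of for a fit, these 6 genes were fitted in all 4 lymphocyte classes. The dendritic cells showed no gene without overlap. Markers of other cells overlapped between the genotypes in CD4 cells: the 6 B markers summed to 9.31 to 11.6 CPM in Cre-negative and 8.15 to 11.2 CPM in Cre-positive mice, and the 6 dendritic markers to 514 to 599.7 and 505 to 551 CPM.

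Counts by class were as follows. In CD4 cells 6 genes passed the low-count filter, and the mice of both genotypes did not overlap for 5 of them (10.6% of all tested genes), 3 higher (5.27%) and 2 lower (5.3%). In CD8 cells all 6 that passed the filter were without overlap (11.5% of all tested genes), 3 higher (5.71%) and 3 lower (5.84%). In B cells it was 6 of 7 (10% of all tested genes), 3 higher (4.98%) and 3 lower (5.06%). Regulatory cells had 1 higher (5.03%) and 3 lower (4.8%; either way 9.83% of all tested genes), the third of the lower ones being Lekr1, which missed the filter with 6 against 1 UMIs. In dendritic cells 4 genes passed the filter and all 8 overlapped (9.42% of all tested genes did not, 4.75% higher and 4.67% lower), and in monocytes no gene passed it. Past an adjusted p of 0.05 were 2 genes in CD8 cells, Trim59 higher and Tiparp lower (0.0676% of all tested genes, 0.0483% higher and 0.0193% lower), and no gene in the CD4 (0.0283%), regulatory (0%), B (0%), dendritic (0.0191%) or monocyte (0%) classes. At an unadjusted p under 0.05 by edgeR there were 5 genes in CD4 (5.13% of all tested genes), 4 in regulatory (5.02%), 6 in CD8 (6.76%), 6 in B (4.6%) and 0 in dendritic cells (3.92%). DESeq2 called Mbnl1 and Kpna4 in CD4 (0.0221% of all genes it tested), Trim59 in CD8 (0.028%) and Mbnl1 in B cells (0.0167%), and none of the 8 in regulatory (0%) or dendritic cells (0.00687%). Since the genes were selected on this comparison, nothing is read from these counts.

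**Figure D2:**
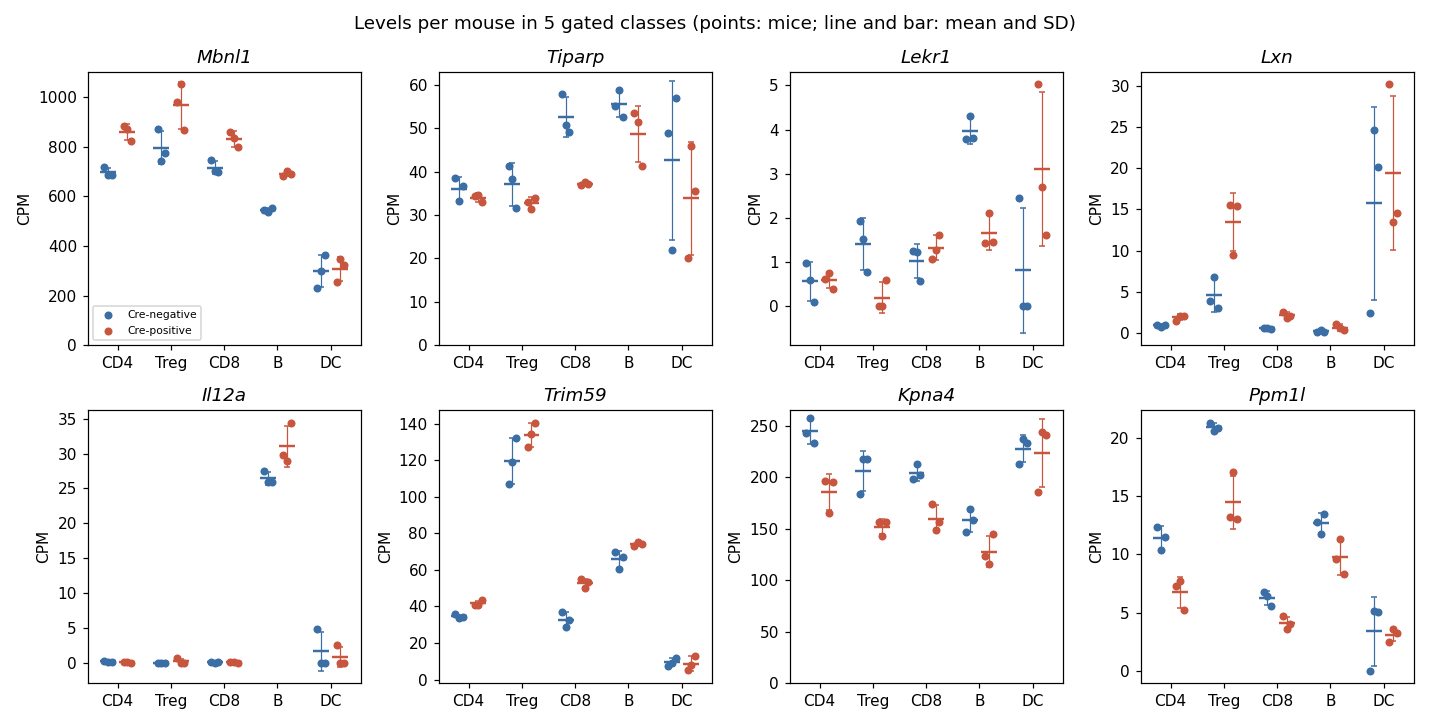
Levels of the 8 genes in each mouse by class and genotype, in CPM scaled within the class; points are mice, lines the mean and whiskers the SD. Kpna4 and Ppm1l of Cre-positive mice lie below all Cre-negative mice in the CD4, regulatory (Treg), CD8 and B classes, and all 8 genes overlap in dendritic cells (DC).

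Trim59 lay higher in Cre-positive mice in CD8 cells. It stood at 36.9, 28.8 and 32.6 CPM in Cre-negative mice 1 to 3 and at 54.8, 50.2 and 53.4 CPM in Cre-positive mice 1 to 3, with 211 to 294 UMIs in the first group and 394 to 551 in the second. No mouse of one genotype reached the range of the other, and the log2 fold change was 0.68 (SE 0.0971). In CD4 cells the values were 35.7, 33.8 and 34.3 CPM against 40.8, 40.8 and 43.3 CPM (0.27, SE 0.0836), and in B cells 69.8, 60.5 and 67.0 CPM against 73.1, 75.5 and 74.0 CPM (0.17, SE 0.0806). These did not overlap either, with a smaller step than in CD8 cells, while in regulatory cells (107 to 132 against 127 to 140.3 CPM, 0.17, SE 0.124) the groups overlapped. With the looser gates, which also keep CD4 cells with Il2ra or Ikzf2 UMIs, the CD4 log2 fold change was 0.18. Whether the step differed between the classes was not tested. With all classes scaled together, the log2 difference between CD8 and CD4 cells was 0.41 in Cre-positive mice against -0.0020 in Cre-negative mice.

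Tiparp lay lower in Cre-positive mice in CD8 cells. The mice stood at 57.9, 50.8 and 49.1 CPM without and at 36.9, 37.5 and 37.1 CPM with Cre. The log2 fold change was -0.50 (SE 0.0918). The 3 Cre-positive mice lay close to each other (SD 0.307 CPM) and below the lowest Cre-negative mouse. In CD4 cells the groups overlapped (36.1 ± 2.67 against 34.0 ± 0.940 CPM, -0.09, SE 0.0883), as in regulatory cells (37.1 ± 4.93 against 32.7 ± 1.32 CPM, -0.19, SE 0.182), B cells (55.6 ± 3.08 against 48.7 ± 6.47 CPM, -0.19, SE 0.0959) and dendritic cells (42.6 ± 18.3 against 33.9 ± 12.99 CPM, -0.20, SE 0.376). Its CD8 value was past the threshold neither with DESeq2 nor with a 5% mitochondrial limit, nor without Cre-negative 1 or Cre-negative 2.

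Some markers of other cells were also without overlap between the genotypes in CD8 cells. All 6 B markers were detected there and summed to 10.7 to 14.7 CPM in Cre-negative and 8.21 to 10.3 CPM in Cre-positive mice. The 3 erythroid markers summed to 9.39 to 32.7 and 0.518 to 5.93 CPM, and the 4 macrophage markers to 1.18 to 2.28 and 2.56 to 3.20 CPM. Their part in the Trim59 and Tiparp differences was not tested.

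Kpna4 lay lower in Cre-positive mice in all 4 lymphocyte classes. In CD4 cells the Cre-negative values were 244, 258 and 234 CPM in mice 1 to 3. The Cre-positive values were 196, 165 and 196 CPM. CD8 cells had 198, 213 and 202 against 174, 149 and 157 CPM, and B cells 147, 169 and 159 against 124, 115 and 145 CPM. Regulatory cells had 184, 218 and 218 against 156, 143 and 157 CPM. The groups were apart in each class, and closest in B cells, where Cre-negative 1 and Cre-positive 3 were at nearly the same level. The log2 fold changes kept to a narrow range, from -0.44 in regulatory (SE 0.116) through -0.40 in CD4 (SE 0.0799) and -0.35 in CD8 (SE 0.0819) to -0.31 in B cells (SE 0.0883). In dendritic cells the groups overlapped, at 228 ± 13.1 against 224 ± 32.7 CPM (-0.02, SE 0.184), from 409 and 494 UMIs.

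Ppm1l lay lower in the same 4 classes. CD4 cells had 12.4, 10.3 and 11.5 CPM without Cre and 7.29, 7.74 and 5.23 CPM with it, and CD8 cells 6.78, 6.41 and 5.59 against 4.68, 3.64 and 4.06 CPM. Regulatory cells had 21.3, 20.6 and 20.9 against 13.2, 17.1 and 13.1 CPM, from 87 and 73 UMIs. B cells had 12.8, 11.8 and 13.5 against 9.63, 11.4 and 8.32 CPM. No class overlapped, though in B cells Cre-positive 2 and Cre-negative 2 stood close together. The log2 fold changes were -0.76 (SE 0.152) in CD4, -0.62 (SE 0.215) in CD8, -0.53 (SE 0.244) in regulatory and -0.40 (SE 0.148) in B cells. Dendritic cells held 7 UMIs in each group, too few for a fit.

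Mbnl1 lay higher in Cre-positive mice. CD4 cells had 717, 686 and 686 CPM without Cre and 884, 874 and 824 CPM with it, and B cells 545, 537 and 552 against 683, 701 and 691 CPM. CD8 cells had 746, 701 and 699 against 860.3, 836 and 799 CPM. The groups were apart in these 3 classes, and the B cell groups were narrow, with an SD of 7.65 and 8.82 CPM. Regulatory cells (796 ± 67.2 against 967 ± 93.8 CPM) overlapped, since Cre-negative 1 at 871 CPM lay above Cre-positive 3 at 867 CPM. The log2 fold changes were 0.35 (SE 0.0744) in B, 0.31 (SE 0.0713) in CD4, 0.28 (SE 0.0990) in regulatory and 0.22 (SE 0.0847) in CD8 cells. Dendritic cells had 298 ± 65.0 and 308 ± 48.8 CPM (0.05, SE 0.203).

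Lxn lay higher in the T cells of Cre-positive mice at low counts. CD8 cells held 5, 5 and 4 UMIs in Cre-negative and 19, 20 and 16 in Cre-positive mice, or 0.628 ± 0.0539 and 2.18 ± 0.360 CPM. Regulatory cells held 6, 9 and 4 against 26, 16 and 26 UMIs (4.61 ± 2.00 and 13.5 ± 3.51 CPM), and CD4 cells 10, 7 and 10 against 12, 26 and 22 UMIs (0.963 ± 0.120 and 1.95 ± 0.380 CPM). The CPM of the 2 genotypes did not overlap in any of these classes. Log2 fold changes were 1.75 (SE 0.429) in CD8, 1.54 (SE 0.373) in regulatory and 1.02 (SE 0.351) in CD4 cells, the largest among the fitted genes in each of these classes. B cells held 5 UMIs in the Cre-negative and 20 in the Cre-positive mice and overlapped. In dendritic cells, where Lxn reached its highest CPM, the groups overlapped widely at 15.7 ± 11.7 and 19.4 ± 9.32 CPM.

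Il12a and Lekr1 could be fitted in B cells only. Il12a had 27.5, 26.0 and 25.9 CPM in Cre-negative and 29.8, 28.9 and 34.4 CPM in Cre-positive mice, from 532 and 884 UMIs. Its log2 fold change was 0.24 (SE 0.102). Lekr1 had 3.80, 4.301 and 3.80 against 1.43, 2.12 and 1.45 CPM (-1.29, SE 0.283), from 80 and 45 UMIs. Neither gene overlapped between the genotypes. The 6 B markers themselves summed to 3579.9 to 3806 CPM in Cre-negative and 3338 to 3525 CPM in Cre-positive B cells, and the 4 plasma cell markers to 432 to 480.3 and 434 to 1575 CPM. The 3 erythroid markers, all detected, summed to 6.35 to 5865 CPM in Cre-negative and 1.06 to 8.54 CPM in Cre-positive B cells. Their part in these differences was not tested.

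**Figure D3:**
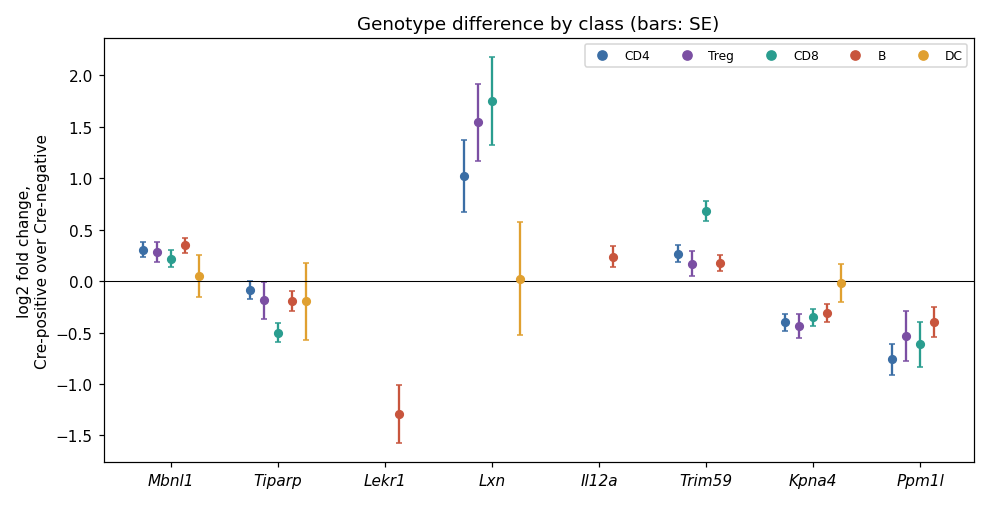
Log2 fold change of Cre-positive over Cre-negative mice for each gene and class that passed the low-count filter; bars are the SE. Kpna4 and Ppm1l lie below 0 in all 4 lymphocyte classes, Mbnl1 and Trim59 above it, and the dendritic points lie near 0 with long bars.

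No gene related to the 8 by family or pathway passed by genotype in any class. Of 131 tests of such genes over the classes, edgeR's quasi-likelihood test passed 0 after adjustment and 5 at an unadjusted p under 0.05 (5.2% of the tests of all genes in these classes), and DESeq2 passed 0. The mice did not overlap in 12 of the 131 tests (10.4% of the tests of all genes). Ahr, the receptor gene, lay higher without overlap in B cells, at 17.8 against 24.4 CPM (0.45, SE 0.123). Its partner gene Arnt lay lower without overlap in B (-0.14), CD4 (-0.22) and CD8 cells (-0.16). The lists held 9 IL-12 family genes, 7 aryl hydrocarbon receptor genes, 9 importins, 8 PP2C phosphatases and 6 splicing factors. In CD4 cells the 9 importins that passed the filter had 3 higher and 6 lower values (median log2 fold change -0.02, against 0.0025 for all genes), and in B cells 2 higher and 7 lower (-0.07, against -0.00037). The 8 phosphatases had a median of 0.01 in CD4 and -0.02 in CD8 cells, and all 7 of them that were tested in B cells lay lower with a median of -0.05. Kpna4 and Ppm1l themselves stood at -0.40 and -0.76 in CD4 cells. The 5 splicing factors tested in CD4 cells had a median of -0.10, with 1 higher and 4 lower, where Mbnl1 stood at 0.31.

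Between classes of Cre-negative mice some of these relatives differed, as did many of all genes (59.9% for B against T cells, 28.6% for regulatory against CD4 cells). For CD8 against CD4 cells, where 26.4% of all genes passed, 3 of 5 IL-12 family genes and 0 of 3 aryl hydrocarbon receptor genes passed. There 1 of 9 importins and 1 of 8 phosphatases passed, and of 5 splicing factors 1 was higher and 1 lower. Of 5 tested IL-12 family genes 3 were higher in regulatory than in CD4 cells (15.2% of all genes were higher), by log2 differences of 4.46 for Ebi3, 2.67 for the receptor gene Il12rb1 and 0.25 for the shared receptor subunit Il6st, and none lower. In B cells against T cells 1 was higher, Ebi3 at 2.84 (30.6% of all genes), and 3 lower (29.3%), among them Il27ra at -1.89 and Il6st at -1.93. Ahr itself was higher in regulatory than in CD4 cells (2.38, SE 0.504). Among the 9 importins 4 were higher (30.6% of all genes) and 1 lower (29.3%) in B than in T cells. Kpna2 was at 0.90 and Kpna1 at 0.62 where Kpna4 stood at -0.42. The 8 phosphatases had 4 higher (30.6% of all genes) and 2 lower (29.3%) in B than in T cells, with Ppm1h at -5.51. Muscleblind relatives Mbnl3 (1.37, SE 0.190) and Mbnl2 (0.45, SE 0.0970) were higher in regulatory than in CD4 cells, whereas Mbnl1 was at -0.013.

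Most of the shifted genes of chromosome 3 lay in the window. Over the 9835 genes tested in at least 3 classes, 0.793% were without overlap in 1 direction in 3 or more classes. The window between 60 and 70 Mb held 24 tested genes, 21 of them in at least 3 classes, and 5 of these 21 (23.8%) met that measure: Mbnl1, Lxn, Trim59, Kpna4 and Ppm1l. No other gene of the window met it. The 50 to 60 Mb bin had 0 of 28 and the 70 to 80 Mb bin 0 of 7. Elsewhere on the chromosome 1 of 88 genes met it from 90 to 100 Mb (1.14%) and 1 of 25 from 120 to 130 Mb (4%). Among 10 Mb bins of the genome with at least 10 such genes the next highest share was 11.8%, on chromosome 4 from 30 Mb. The window was chosen for these shifts, so its rank is a description.

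The edges of the window have wide gaps in tested genes. The nearest gene below it tested in at least 3 classes was P2ry14 at 59113855 to 59153618, with no class of 3 without overlap, preceded by Gpr171 with 0 of 5 and Siah2 with 1 of 5. Just inside, Mbnl1 had 3 of 5. Toward the other end Ppm1l had 4 of 4 and Nmd3, the last tested gene inside, 1 of 5. Above 70 Mb the nearest were Pdcd10 at 75516490 to 75556856 with 1 of 5, then Serpini1 with 0 of 4 and Golim4 with 0 of 5.

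**Figure D4:**
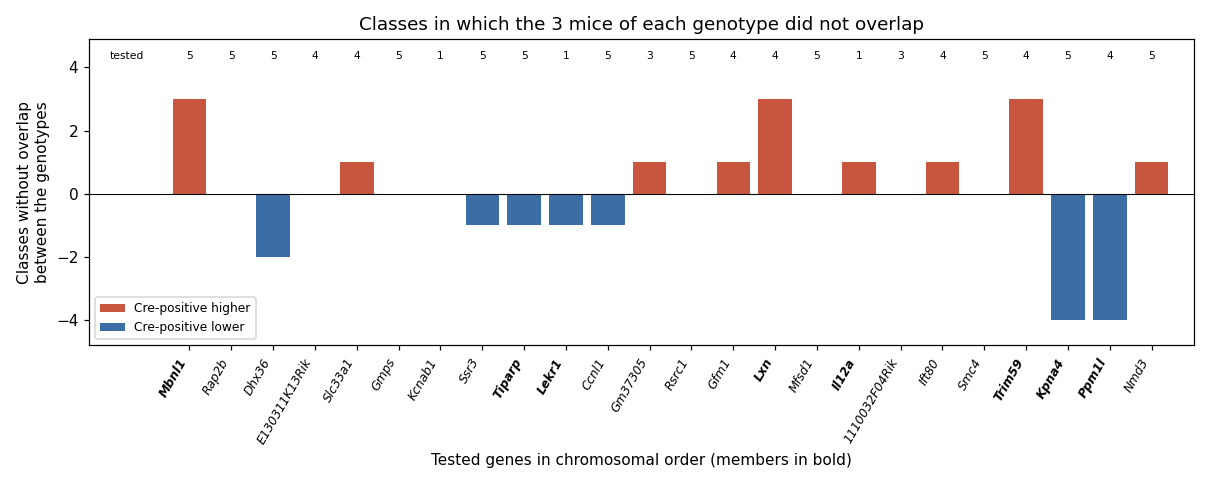
Tested genes of the window in chromosomal order, with the number of classes in which the mice of both genotypes did not overlap, up for higher and down for lower in Cre-positive mice; the number above each gene is the classes tested. Mbnl1, Lxn and Trim59 reach 3 classes upward and Kpna4 and Ppm1l 4 downward, with genes of 0 to 2 classes between them.

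Genes beside the shifted ones mostly had smaller differences in the same class. Lxn lies within Gfm1, which encodes a mitochondrial elongation factor on the opposite strand, and Gfm1 had log2 fold changes of -0.10 in CD4, 0.04 in regulatory and 0.17 in CD8 cells with overlapping groups, and 0.18 in B cells without overlap. Whether the authors' counting used strand is not given in the sources used here, so reads of the 2 genes may not be fully apart. Smc4, a condensin gene 664 bases from Trim59, had 0.10 in CD8 and -0.07 in CD4 cells, with overlap in all 5 classes tested. In B cells it was at -0.18 (SE 0.0847), as far from 0 as Trim59 there (0.17, SE 0.0806). Ift80, a gene of ciliary transport near Trim59, had 0.20 in CD8 cells without overlap, and 0.02 in CD4, -0.11 in regulatory and 0.12 in B cells with overlap. Trim59 and Kpna4, the first higher and the second lower in Cre-positive mice, are 22393 bases apart on the same strand. Tiparp and Lekr1 are 110709 bases apart, and the next genes on either side, Ssr3 and Ccnl1, were at -0.0028 and -0.05 in CD8 cells. Ssr3 in CD4 and Ccnl1 in B cells were lower without overlap, both at -0.08. In regulatory cells Ssr3 was at -0.18 with overlap, where Tiparp was at -0.19. Lekr1 overlaps the antisense gene Gm37359.

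The genes most alike in class pattern were found by Pearson's r of log2(CPM + 1) over the 18 Cre-negative sums, among 5461 genes with a mean of at least 20 CPM. The points share libraries and include monocyte sums of low depth, so r is a description. Trim59 was closest to Bclaf3 (0.983), Ppp1r16b (0.983) and Arhgef12 (0.977), and Il12a to genes that included Fcrla (0.972) and Mzb1 (0.964). Kpna4 was closest to Higd2a (0.992), Prelid1 and Tpm3, and Mbnl1 to Txlng (0.985), Slc35b3 and Ikzf5. Tiparp was closest to Txnrd1 (0.987), Ppp5c and Ubac1, Ppm1l to Mirt1 (0.964), 4732440D04Rik and Cers4, and Lxn to Mcl1 (0.894), Selenom and Ndufc2. Lekr1 was under the mean of 5 CPM set for this comparison.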

How the data were processed

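The deposited values are raw UMI counts per gene and barcode, which the authors obtained from Cell Ranger 6.1.2 and build mm10 (per the submitters' processing notes). Annotation release and use of strand are not given in the sources used here. Positions came from GENCODE M21 by Ensembl identifier, matched for 30934 of 31053 features. A few genes, among them the floxed one, are not reported here.

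Cells were kept with at least 500 UMIs, at least 300 genes and at most 10% mitochondrial UMIs, and doublets (539 to 957 per library) were removed with Scrublet in scanpy 1.11.5 at 0.8% per 1000 barcodes. Cells were gated on UMIs of 41 marker genes: CD4, CD8 and regulatory cells by CD3 genes with Cd4, with Cd8a and Cd8b1, or with Foxp3, B cells by Cd79a and Cd79b with further B cell genes, dendritic cells by at least 20 class II UMIs and 2 dendritic genes, monocytes by at least 3 Lyz2 UMIs with Csf1r. The CD4 gate also required no UMI of Foxp3, Il2ra or Ikzf2, and the looser gates lifted this for Il2ra and Ikzf2. The mouse is the replicate, and its UMIs were summed within each class. Sums came to 7957185 to 11779617 UMIs per mouse in CD4, 1317824 to 1720754 in regulatory, 7142586 to 10621022 in CD8, 6047615 to 11358961 in B, 407814 to 1085910 in dendritic cells and 10121 to 26884 in monocytes. They were fitted with the quasi-likelihood test of edgeR 4.0.16 (R 4.3.3) with TMM factors, the low-count filter and Benjamini-Hochberg adjustment at 0.05, once per class for the genotypes and once over the Cre-negative sums for the classes. The scripts were tested on simulated data. DESeq2 1.42.0, other factors, filters, gates and left-out mice were alternatives, of which the wider myeloid gate was chosen after seeing the data.

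The 8 genes and all lists were chosen with earlier results of these data known. Named were the 8 genes in every class, other genes of the window that passed or were without overlap in 3 classes, the 3 genes most alike each, 5 lists of related genes, and genes overlapping or beside the 8. The genes at the edges of the window were named after their values were seen.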

Additional observations from a re-analysis of the deposited data

How the results depend on the processing

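Pairs of gene and class past the threshold between genotypes numbered 2. There were 4 with DESeq2, 9 without the low-count filter, 1 with a 5% mitochondrial limit and 2 to 3 without 1 mouse. Over all genes, 11 pairs of gene and class passed, 116 without the filter, 17 with doublets kept and 12 to 56 without 1 mouse. Whether replicate numbers pair the mice is not given in the labels used here. In CD4, regulatory, CD8 and B cells, r over genes was taken between each Cre-negative and each Cre-positive mouse. It was -0.23 to 0.30 for same-numbered mice and -0.27 to 0.34 for others. These r are not correlations of the levels themselves, and 3 mice per group are too few to decide the pairing. With the replicate block 5 pairs passed, and 56 over all genes. Of 431 values of single genes by genotype under alternatives, 9 moved by more than their spread. The dendritic signs of Mbnl1, Tiparp, Lxn and Kpna4 changed in 1 to 5 settings of 14 or 15. Between classes 14 to 22 of 40 pairs passed, against 19. These counts include the pairs with too few UMIs to be read, and 16 of the 19 were among the 25 pairs read above. Of 297 values of single genes, 277 kept direction and call, 12 lost the call, 2 gained it (Mbnl1 CD8 minus CD4 with looser gates, Kpna4 myeloid minus lymphocyte with the wider gate) and 6 changed sign. All 6 were near 0: regulatory minus CD4 of Mbnl1 (-0.013) became 0.055 with DESeq2, 0.0023 with looser gates and -0.061 to 0.011 without 1 mouse, above 0 without Cre-negative 2. CD8 minus CD4 of Trim59 (-0.0020) became 0.017 with upper quartile factors, 2.1e-04 with the wider myeloid gate and -0.074 to 0.058 without 1 mouse, above 0 without Cre-negative 2. Causes were not tested. Few cells limit the dendritic and monocyte classes, and low counts limit Lxn, Lekr1 and, outside B cells, Il12a.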
